A study of Mus musculus with 7 samples.

Results

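Expression of the Dlx, Lhx, Emx, Otx, Irx and Sox genes was read in mouse brain and mouse kidney. Pax1, Pax3 to Pax9 and Six2 to Six6 were read as well, but Pax2 was not covered. A probe set, a group of short probes for 1 transcript, was taken when the platform annotation gave it a single gene symbol made of one of these family names and a number. The noncoding Sox2ot also met this rule and was counted apart from the coding genes. In all, 116 of 45037 sense probe sets belonged to the families, for 57 of 18193 genes, of which 56 were coding. On the arrays that read antisense RNA, 6 of 5652 reverse probe sets did, for 5 of 2915 genes. The series asked how sense and antisense transcripts compare in both tissues, with total RNA of dissected, PBS-rinsed brain and kidney on 7 Affymetrix arrays. Brain sense RNA was read on the 430A array (79 of the family probe sets, 51 genes) and the 430B array (37 probe sets, 25 genes), and kidney sense RNA on the 430 2.0 array, which holds both sets. Antisense signals of each tissue came from reverse probe sets of the U74A and U74B arrays. The labels name neither strain nor age, sex or treatment. Each of the 7 combinations of tissue, strand and array design was hybridised once, which leaves the values without an error between animals and the differences without a test. U74A and U74B were used for both tissues, but the sense arrays differed between them, so for sense RNA array type and tissue cannot be told apart.

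All of these genes encode DNA-binding transcription factors except Sox2ot. Dlx, Lhx, Emx, Otx and Irx proteins and Six3 and its relatives bind through a homeodomain, Pax proteins through a paired domain, and Sox proteins through an HMG box that bends DNA. The families set up regions and cell types in the embryo, and several stay on in adult cells: Sox2 in neural stem cells and glia, Sox10 in oligodendrocytes, Pax8 and Irx genes along the nephron, and SoxF proteins (Sox7, Sox17 and Sox18) in endothelium.

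The deposited values are MAS5 signals, a probe set's brightness on a linear scale, and they are printed below as deposited, brain before kidney. Most family probe sets of either brain array were brighter in brain as deposited, so that order alone says little about a gene. Each brain array was centred on the kidney array before a fold was taken, which multiplied 430A brain signals by 1.79 and divided 430B brain signals by 4.24. A floor was then set at the median probe set, so that a signal under 104 on the brain 430A array, under 121.5 on the brain 430B array, or under 186.4 (430A probe sets) or 28.6 (430B probe sets) on the kidney array was raised to it. A gene was called for one tissue when its ratio after these steps reached 2-fold, and a fold against a tissue under the floor is written as "at least". The 100 probe sets on both brain arrays read 2.51-fold brighter on 430B, so each 430B fold is also given with that array brought to the 430A scale. Their log2 difference between both brain arrays had an SD of 0.25 over the 98 above both medians, the closest to a technical repeat in these data. Most family probe sets were dimmer than these, so this SD does not cover their readings. The tissues carried their labels' markers: all 8 neuronal markers, 5 of 5 oligodendrocyte markers and 4 of 6 astrocyte markers were higher in brain, and 7 of 8 proximal tubule and 6 of 7 collecting duct markers in kidney.

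Most family genes were dim. By the probe set of highest mean rank per gene, 26 of 57 genes (45.6%) passed the floor in brain, kidney or both, against 71.0% of all genes. In brain, 5 family genes were 2-fold or more higher: Sox2, Sox2ot, Sox10, Sox21 and Pax5. In kidney, 9 were: Emx1, Emx2, Irx1, Irx3, Pax8, Sox4, Sox11, Sox17 and Sox18. That is 8.77% and 15.8% of the family genes, where 12.9% and 18.7% of all genes were called. The median log2 ratio of brain over kidney was 0.06 over the 26 genes above the floor, against -0.08 over all genes above it. With 430B at the 430A scale, the families held 5 brain calls and 7 kidney calls, 8.77% and 12.3% of their genes against 18.2% and 10.8% of all genes, and the medians were 0.38 and 0.29. The number above the floor was again 26, against 68.6% of all genes. The calls on Emx1 and Sox11 ended at that scale.

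**Figure D1:**
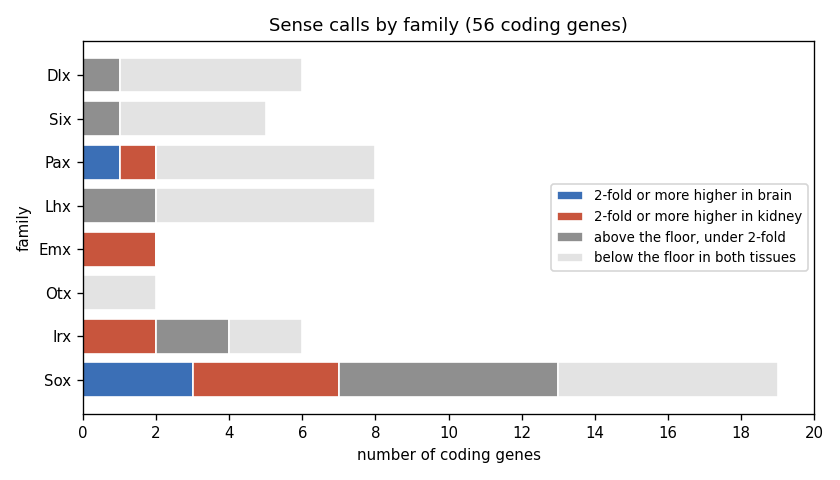
Number of coding genes of each family (x axis) by sense call, for the probe set that represents each gene. Otx has no gene above the floor, Emx has 2 of 2 higher in kidney (1 at the 430A scale) and Sox, the largest family with 19 genes, holds 3 brain and 4 kidney calls (3 and 3 at the 430A scale).

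By probe set, 430A held 3 brain calls and 9 kidney calls among 79, or 3.8% and 11.4%, where 11.7% and 12.4% of all its probe sets were called. With genes under the floor counted in, the brain share of the families was thus below that of all genes on both scales. The kidney share so counted lay below it on one scale and above it on the other. Of the genes above the floor, 19.2% of the families were called for brain and 34.6% for kidney, against 18.2% and 26.4% of all. At the 430A scale these shares were 19.2% and 26.9%, against 26.6% and 15.7% of all. The share above the floor was 29.1% for the family probe sets against 59.1% for all. On 430B, 51.4% of the family probe sets passed the floor against 59.6% of all, or 40.5% against 52.8% at the 430A scale. Of these 37, 3 were called for brain and 6 for kidney, or 8.11% and 16.2% against 11.1% and 14.2% of all. At the 430A scale these became 4 and 2, or 10.8% and 5.41% against 19.3% and 3.28% of all. Sox4 alone gave 4 of the 9 kidney calls on 430A. With the floor at the 75th percentile, 3 of the 14 gene calls held: Emx1, Emx2 and Sox4. Emx2 was the only gene whose call held under every scaling, floor and probe set choice tried. It has 1 probe set, without a suffix mark, so the choices of probe set could not change its call. Sox4 lost its call only with the median over its 8 probe sets.

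**Figure D2:**
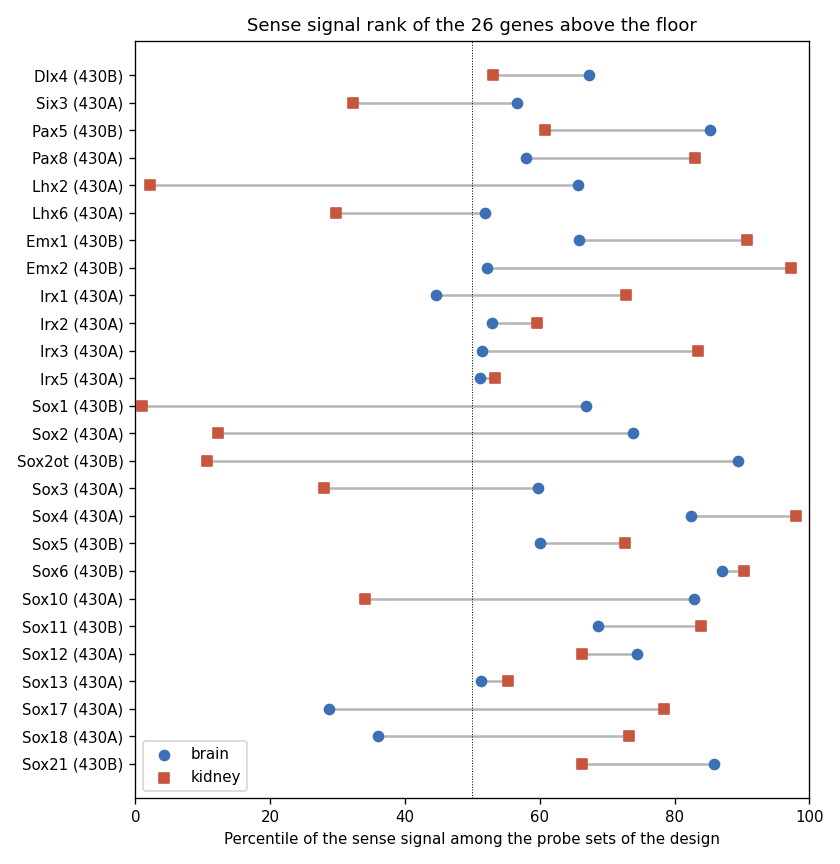
Percentile of each gene's signal among the probe sets of its design (x axis), in brain (circles) and kidney (squares), for the 26 genes above the floor, with 50 dotted. Sox2ot, Sox1, Sox2 and Lhx2 lie above percentile 60 in brain and under 15 in kidney, while Emx2 and Sox4 lie above percentile 95 in kidney.

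Emx1 and Emx2 are homeodomain factors of the dorsal forebrain, and Emx2 also of the urogenital tract. Emx2 gave a signal of 129.8 in brain and 593.1 in kidney. This put it at percentile 52.2 of the 430B probe sets in brain and 97.3 in kidney, a 19.4-fold difference, or 6.41-fold at the 430A scale. Without centring it was still 2-fold or more. The brighter Emx1 probe set read 196.2 and 221.8, 4.80-fold higher in kidney, but 1.58-fold and so not called at the 430A scale. The other Emx1 probe set read 14.3 and 5.7, under the floor in both tissues. Emx2 was therefore higher in kidney on either scale and Emx1 on one of them.

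Of the Irx genes, which pattern the nephron into segments, Irx1 and Irx3 were higher in kidney. Irx3 read 108.8 in brain and 725.0 in kidney, a 3.72-fold difference, and stood at percentile 51.4 in brain and 83.4 in kidney. Irx1, at 86.9 and 387.6, was at least 2.08-fold higher in kidney. Both kidney readings lay well above the kidney median of the same probe sets, and both brain readings lay near the brain median. Irx2, of the same gene cluster as Irx1, read 114.4 and 199.3, and Irx5, of the cluster of Irx3, 107.8 and 146.0. After centring, Irx2 was 1.03-fold and Irx5 at least 1.04-fold higher in brain, and neither was called. Without centring both leaned towards kidney, with log2 ratios of -0.72 and -0.27. Irx4 (9.2 and 4.1) and Irx6 (61.5 and 24.0) were under the floor in both tissues.

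Pax8, which with other Pax factors drives formation of the renal tubule and stays on in its cells, read 135.2 in brain and 705.6 in kidney. It was 2.91-fold higher in kidney and stood at percentile 83.1 there. Its second probe set, on 430B, read 18.9 and 15.6, under the floor in both tissues. So the Pax8 call rests on 1 of 2 probe sets. The summed signal of the 8 proximal tubule markers was 735.7 in brain and 28680.4 in kidney, with 7 called for kidney. Lrp2 was called for brain by its representative probe set, but 2 of its 3 probe sets were called for kidney. Sums, here and below, add deposited signals without centring, and mix the scales of both brain arrays where a list holds 430B probe sets. The part of the proximal tubule markers in the Pax8 values was not tested. In bulk tissue, fewer cells of a type and less RNA per cell cannot be told apart, for this and for every gene below.

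Sox4, a SoxC factor of immature and regenerating epithelial and neural cells, had the largest set of readings, with 8 probe sets. Its brightest read 352.5 in brain and 4330.5 in kidney, 6.86-fold higher in kidney. That signal ranked at percentile 82.4 in brain and 98.0 in kidney, so it was bright in both. The other 430A probe sets read 154.1 and 896.3, 86.1 and 809.6, 17.8 and 716.7, 31.1 and 124.3, and 17.2 and 61.8. All 6 were brighter in kidney, and 4 of them passed the 2-fold call. Both 430B probe sets, which share 1 source sequence in the annotation, ran the other way, at 130.0 and 1.6, and 87.8 and 2.6. Neither of these was called. With the median of the 8 probe sets in place of the brightest, Sox4 was no longer called.

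Of the 3 SoxF factors of endothelium, Sox17 and Sox18 were higher in kidney and Sox7 was not called. Sox17 read 47.0 and 524.3, at least 2.81-fold higher, by a probe set marked as one that may bind other transcripts (_x_at). Its other probe set read 79.7 and 106.4, under the floor in both tissues. Sox18 read 64.0 and 397.3, at least 2.13-fold higher. Sox7 read 33.4 and 116.7 on 430A and 23.3 and 14.3 on 430B, under the floor and in opposite directions. The endothelial markers leaned the same way, with 3 of 6 higher in kidney and none in brain, and a summed signal of 495.7 in brain and 2846.8 in kidney. All 6 were above the floor in kidney, but in brain only Kdr was (120.4), and Tie1 read 5.0 there. Their part in the SoxF values was not tested.

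**Figure D3:**
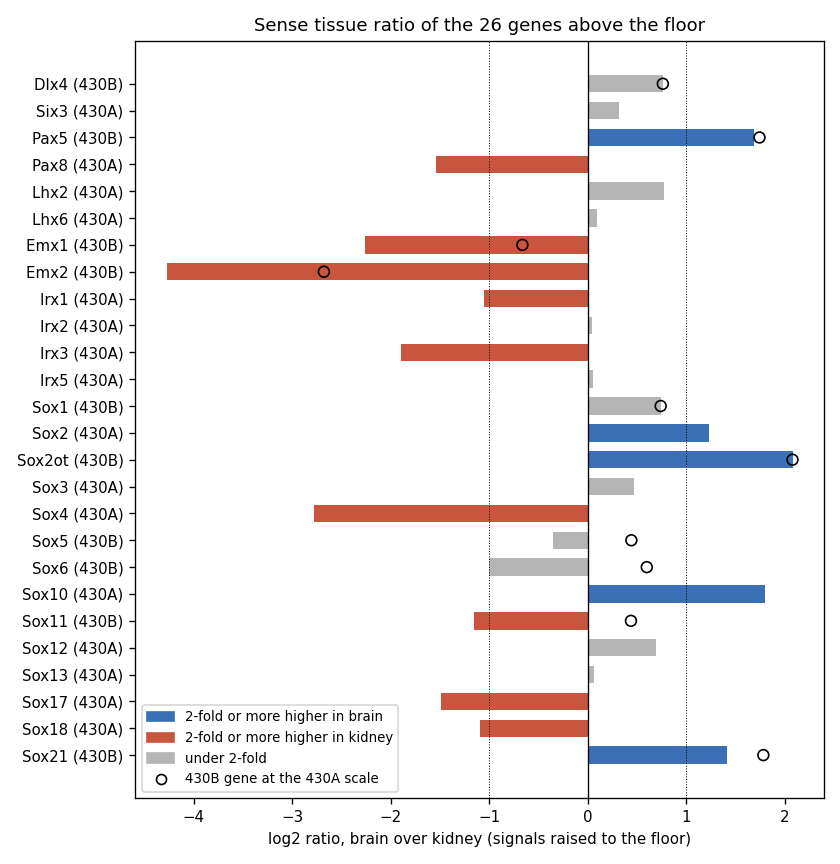
Log2 ratio of brain over kidney (x axis) for the 26 genes above the floor, with signals raised to the floor, so that bars with 1 tissue under it are lower bounds. Bars are coloured by call, dotted lines mark 2-fold, and open circles give 430B genes at the 430A scale, where Sox5, Sox6 and Sox11 cross 0.

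Of the 5 SoxB genes, Sox2 and Sox21 were called for brain, as was the noncoding transcript that spans Sox2. SoxB1 factors (Sox1, Sox2 and Sox3) keep neural progenitors undifferentiated. Sox2, at 244.5 and 7.3, was at least 2.35-fold higher in brain. Sox2ot, the noncoding RNA whose gene overlaps Sox2, read 512.7 and 2.3, at least 4.22-fold higher in brain at either scale of 430B. These bounds are set by the floor: the kidney signals lay at percentiles 12.3 and 10.7. Sox21, a SoxB2 factor that represses SoxB1 targets, read 417.6 and 36.9, 2.67-fold higher in brain and at least 3.44-fold at the 430A scale. Its 430A probe set read 91.1 and 1.3, under the floor. With the 430A floor used for 430B, Sox2ot and Sox21 fell under it in both tissues and were not called.

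Sox1 and Sox3, the other SoxB1 factors, had their brighter probe sets at 202.8 and 0.5, and at 144.3 and 29.0. Both were above the floor in brain and under it in kidney, by at least 1.67-fold and at least 1.39-fold, short of the call. Their second probe sets read 9.0 and 1.0 (Sox1), and 36.9 and 6.8 (Sox3). Sox14, of the SoxB2 group, read 80.6 and 5.5 and was under the floor. As deposited, every probe set of the 5 SoxB genes was thus brighter in brain than in kidney, as were most family probe sets. Of 6 markers of astrocytes, cells that share Sox2, 4 were called for brain and 1 for kidney, with summed signals of 16071.9 and 2853.7. Of these markers, Slc1a2 (8880.8 and 25.8) and Slc1a3 (3678.8 and 28.8) were read on 430B, the brighter brain array, and the rest on 430A. The part of the astrocyte markers in the SoxB values was not tested.

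Sox10, the SoxE factor that switches on myelin genes, was read by 3 probe sets on 430A. They gave 362.4 and 43.9, 351.9 and 6.9, and 183.0 and 3.1. All 3 were above the floor in brain and under it in kidney, at least 3.48-fold, at least 3.38-fold and at least 1.76-fold higher in brain. The 3 probe sets carry an _a_at mark, given to probe sets that match several transcripts of 1 gene. The oligodendrocyte markers read 13230.5 in brain and 452.0 in kidney when summed, and all 5 measured were higher in brain. Their part in the Sox10 values was not tested. The other SoxE genes stayed under the floor: Sox8 read 16.1 and 10.1, and the 3 probe sets of Sox9, a factor of astrocytes, between 11.7 and 90.2 in brain and between 5.2 and 21.5 in kidney.

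Pax5, a factor of the midbrain boundary and of B cells, read 406.4 in brain and 29.8 in kidney on 430B. It was 3.22-fold higher in brain, and at least 3.34-fold at the 430A scale. Its 430A probe set read 12.5 and 5.5, under the floor in both tissues, so the call rests on 1 of 2 probe sets. With the median over both, or with the 430A floor used for 430B, Pax5 was not called. Pax6 is a master factor of the eye and of cortical progenitors. As deposited, all 5 of its probe sets were brighter in brain, as were most family probe sets. They ran from 1.5 to 108.4 in brain and from 0.6 to 18.6 in kidney. Only the brightest, at 108.4 and 5.1, was above the floor.

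Promoter sequences are shown for 6 of the called genes, each with 1 start site in RefSeq's GRCm38.p6 table, to set kidney and brain genes side by side. The 250 bases before the start of 4 genes called in kidney (Emx2, Pax8, Irx3 and Sox4) and 2 called in brain (Sox2 and Sox21) follow, read 5′ to 3′ along the gene. Capitals mark matches on either strand to GGGCGG (the GC box), to CCAAT (the CCAAT box), to TATAAA (the TATA box), to TAATTA (a core bound by many homeodomains) or to AACAAT (a Sox core), and matches that touch merge.
Emx2, chr19:59458440-59458689, plus strand: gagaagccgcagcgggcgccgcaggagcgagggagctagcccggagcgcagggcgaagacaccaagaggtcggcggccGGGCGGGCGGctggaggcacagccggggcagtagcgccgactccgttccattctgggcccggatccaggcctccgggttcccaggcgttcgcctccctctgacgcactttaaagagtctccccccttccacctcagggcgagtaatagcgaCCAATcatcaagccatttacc
Pax8, chr2:24475600-24475849, minus strand: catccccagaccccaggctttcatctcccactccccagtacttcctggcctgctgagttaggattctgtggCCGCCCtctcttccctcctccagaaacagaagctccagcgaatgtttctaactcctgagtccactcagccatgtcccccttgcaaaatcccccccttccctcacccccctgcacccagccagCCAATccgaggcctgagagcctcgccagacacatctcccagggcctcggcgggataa
Irx3, chr8:91801655-91801904, minus strand: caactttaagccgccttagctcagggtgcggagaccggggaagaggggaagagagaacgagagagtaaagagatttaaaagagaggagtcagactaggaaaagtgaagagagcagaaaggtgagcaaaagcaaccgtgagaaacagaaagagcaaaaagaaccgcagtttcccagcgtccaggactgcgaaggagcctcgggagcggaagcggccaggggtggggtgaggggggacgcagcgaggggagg
Sox4, chr13:28953700-28953949, minus strand: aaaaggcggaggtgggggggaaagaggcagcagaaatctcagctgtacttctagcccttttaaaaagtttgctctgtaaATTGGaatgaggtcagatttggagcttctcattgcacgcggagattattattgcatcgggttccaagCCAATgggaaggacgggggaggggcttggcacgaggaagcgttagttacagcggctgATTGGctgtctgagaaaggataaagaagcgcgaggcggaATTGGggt
Sox2, chr3:34649745-34649994, plus strand: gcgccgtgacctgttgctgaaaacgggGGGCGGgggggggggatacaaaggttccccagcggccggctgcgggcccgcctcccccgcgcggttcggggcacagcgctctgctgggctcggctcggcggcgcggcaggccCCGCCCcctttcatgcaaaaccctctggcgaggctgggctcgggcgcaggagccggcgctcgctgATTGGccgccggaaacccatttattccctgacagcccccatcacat
Sox21, chr14:118237031-118237280, minus strand: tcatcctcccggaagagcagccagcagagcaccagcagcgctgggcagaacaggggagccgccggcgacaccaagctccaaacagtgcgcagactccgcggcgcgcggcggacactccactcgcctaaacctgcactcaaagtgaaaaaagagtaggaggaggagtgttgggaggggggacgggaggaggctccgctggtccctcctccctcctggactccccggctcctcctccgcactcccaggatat
None of the 6 windows held the TATA box, the homeodomain core or the Sox core. GGGCGG matched at 2 places each in Emx2 and Sox2 and at 1 in Pax8, and CCAAT at 4 places in Sox4 and at 1 each in Emx2, Pax8 and Sox2. Irx3 and Sox21 held none of the 5 motifs, so capitals are absent there. RefSeq's table gave 53 windows for 39 of the 57 family genes, several genes having more than 1 start. Their median GC content was 60.8%, against 52.4% over all 32851 windows of the table. The ratio of observed to expected CpG pairs had a median of 0.68 against 0.37. The GC box was found in 52.8% of the family windows and 32.7% of all, and the CCAAT box in 45.3% and 33.8%. The TATA box was in 5.66% and 12.4%, the homeodomain core in 3.77% and 4.84%, and the Sox core in 3.77% and 9.42%. Among the 6 shown, GC content ran from 50.8% in Sox4 to 72.0% in Sox2, and the CpG ratio from 0.31 in Pax8 to 0.85 in Emx2.

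Several regional factors were above the floor in brain alone, without passing 2-fold. Lhx2, a LIM homeodomain factor of the cortex and eye, read 178.3 and 1.3, at least 1.71-fold higher in brain. Its percentile was 65.7 in brain and 2.21 in kidney. Dlx4, by its 430B probe set, read 205.9 and 22.7 (at least 1.69-fold), and its 430A probe set read 103.3 and 22.9, just under the brain floor. Six3, which shapes the anterior forebrain, read 129.4 and 38.6, at least 1.24-fold. Lhx6, a factor of cortical interneurons, read 110.8 and 32.7, at least 1.07-fold. The other Six3 probe sets read 5.7 and 20.7, and 1.8 and 0.7, and the other of Lhx6 70.9 and 3.9.

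The remaining SoxC and SoxD genes gave no uniform direction. Sox12 read 250.4 and 278.2, 1.61-fold higher in brain after centring, and Sox13 108.5 and 162.0, at least 1.04-fold. Sox11, a SoxC factor of newborn neurons, had 5 probe sets on 430B that were all brighter in brain, between 117.8 and 257.8 there and between 32.7 and 113.3 in kidney. Its 430A probe set was brighter in kidney, at 38.3 and 86.9, under the floor. Because the 430B brain array was divided by 4.24, all 5 turned towards kidney, and the one that represents the gene (215.1 and 113.3) was 2.23-fold higher there. At the 430A scale the same probe set was 1.35-fold higher in brain and another (257.8 and 77.1) at least 2.12-fold. The direction of Sox11 thus depended on the scale.

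Sox6 and Sox5, SoxD factors that act as partners of SoxE proteins, depended on the scale as well. The representative Sox6 probe set read 450.3 and 212.2, which was 2.00-fold higher in kidney and just short of the call, or 1.51-fold higher in brain at the 430A scale. A second one on 430B, marked _x_at, read 202.5 and 409.4 and was 8.58-fold or 2.83-fold higher in kidney. On 430A Sox6 read 66.7 and 340.9, at least 1.83-fold higher in kidney, and 17.7 and 26.9, under the floor. Of the 4 Sox6 probe sets, 3 were brighter in kidney as deposited and 1 in brain. Sox5 had 7 probe sets, of which 6 were brighter in brain and 1 in kidney, and only 1 (165.0 and 49.8) was above the floor. That one was 1.28-fold higher in kidney, or at least 1.36-fold higher in brain at the 430A scale.

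**Figure D4:**
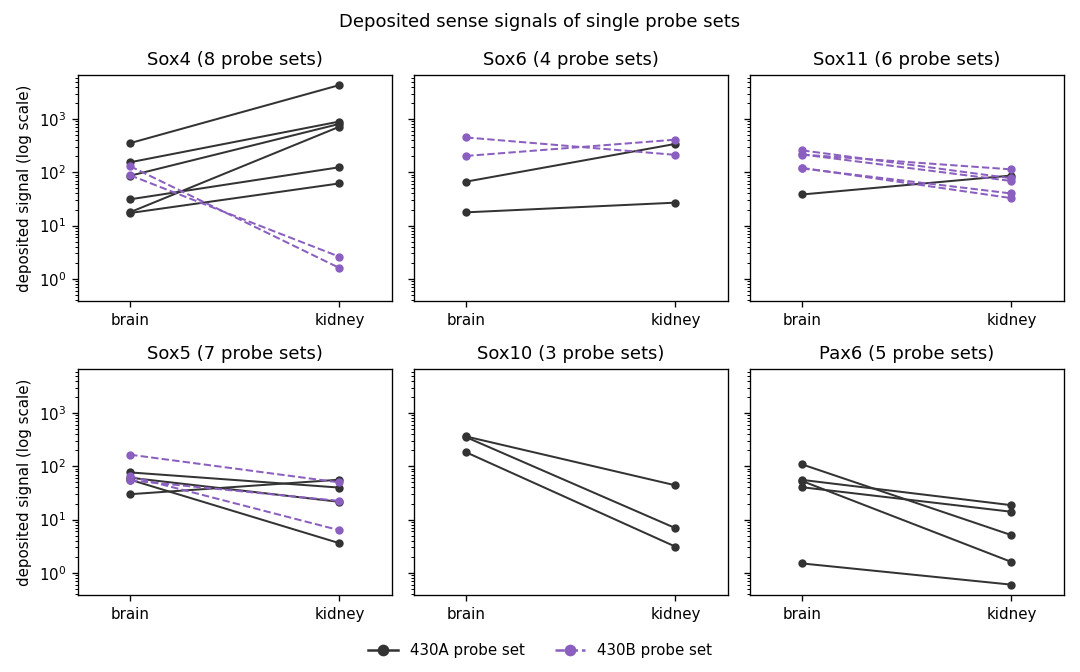
Deposited signal (log axis) in brain and kidney of every probe set of Sox4, Sox6, Sox11, Sox5, Sox10 and Pax6, with 430A probe sets as solid and 430B as dashed lines. All lines of Sox10 and Pax6 fall from brain to kidney, while those of Sox4 rise on 430A and fall on 430B.

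Over the 6 family genes with more than 1 probe set above the floor, the log2 ratios within a gene had a pooled SD of 0.81. Over all 5632 such genes it was 1.04. Probe sets of a gene read the same RNA through different probes and are no replicates. Of the 57 family genes, 0 had one probe set called in brain and another in kidney, and 314 of all 18193 genes did. With so small a share over all genes, the 0 does not set the families apart. Six4 was called by none but its 430B probe sets, at 3.3 and 86.7 and at 9.7 and 83.5. They were at least 3.03-fold and at least 2.92-fold higher in kidney, while its 430A probe sets, one of which represents the gene, were under the floor (59.9 and 58.8, and 8.4 and 2.8). At the 430A scale neither was called.

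Under the floor in both tissues were 31 of the 57 genes by their representative probe set. The 27 of these read on 430A lay between 3.1 and 99.9 in brain (median 48.7) and between 0.4 and 138.7 in kidney (median 19.4). They are Dlx1, Dlx2, Dlx3, Dlx5, Dlx6, Irx4, Irx6, Lhx1, Lhx3, Lhx4, Lhx5, Lhx8, Lhx9, Otx2, Pax3, Pax4, Pax6, Pax7, Pax9, Six2, Six4, Six5, Six6, Sox7, Sox9, Sox14 and Sox15. The 4 read on 430B (Otx1, Pax1, Sox8 and Sox30) lay between 12 and 43.5 in brain and between 3.5 and 11.5 in kidney. A reading under the floor is not an absence. Some of these were unequal between tissues: Lhx1, a factor of the renal vesicle and of Purkinje cells, read 47.6 and 138.7, and 5.3 and 49.0. Six5 read 31.9 and 97.9. All 4 probe sets of Lhx9 were brighter in brain, at 41.7 to 70.4 against 0.5 to 21. These differences carry no call.

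Noncoding RNAs named for a family gene were measured for 8 of 11 listed. Sox2ot was the only one called. Lhx1os read 346.6 and 153.2, 1.87-fold higher in kidney, or 1.61-fold higher in brain at the 430A scale. Emx2os, whose gene adjoins Emx2 without overlap, read 110.3 and 55.3, at least 1.93-fold higher in kidney and under the floor at the 430A scale. Unlike Emx2, it was brighter in brain as deposited. Dlx1as, Dlx6os1, Six3os1, Pax6os1 and Otx2os1 were under the floor, between 28.5 and 121.3 in brain and between 5.7 and 21.7 in kidney. All of these were brighter in brain as deposited, but so were most family probe sets of both brain arrays. Outside the list, Dlx6os2 (6.3 and 3.3) and Dlx4os (20.9 and 6.1) were brighter in brain and Sox6os (9.0 and 11.2) in kidney, all under the floor.

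Partner genes were taken from lists drawn up with earlier results of these data known. Each gene is given by its representative probe set, and several calls rest on only some of a gene's probe sets. Of the 6 Eya and Dach genes, whose products act with Six3 and its relatives, 3 were above the floor. Eya3 was higher in brain (430.8 and 170.4, at least 4.14-fold), called by 1 of its 4 probe sets. Dach1 was higher in kidney (103.4 and 461.1, at least 16.1-fold, or at least 5.32-fold at the 430A scale), called by 1 of 3. Of 13 LIM homeodomain relatives and cofactors, 11 were above the floor, with 4 called for brain and 1 for kidney (median log2 ratio 0.57). The brain genes were Lmo3 (859.1 and 5.0), Lmo4 (567.1 and 416.7), Ssbp3 and Ssbp4, and the kidney gene was Ldb2 (416.3 and 921.2), a bridging factor for LIM proteins. Ldb1, its close relative, read 121.1 and 218.0 and was not called. None of the 5 Groucho corepressors above the floor was called.

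Of 7 POU factors measured, which pair with Sox proteins on DNA, Pou6f1 was higher in brain and Pou3f3 in kidney. Pou3f3 read 1375.2 and 1157.0, and its call ended at the 430A scale. Of 6 oligodendrocyte factors, Olig1 (1276.3 and 2.2) and Myrf (385.9 and 92.1) were called for brain, and kidney had no call. Of 13 forebrain and neuronal factors, 4 were called for brain and 1 for kidney, and at the 430A scale 5 and 1. The 4 were Neurod1 (887.0 and 9.2), Neurod2 (1335.9 and 19.6), Zic1 (1572.9 and 0.3) and Myt1l (849.3 and 16.8), and the kidney gene was Meis2 (668.9 and 1417.8). Probe sets called were 2 of 2 for Neurod1 and Zic1, 2 of 3 for Neurod2, 3 of 5 for Myt1l and 2 of 4 for Meis2. Of 16 nephron and kidney factors, 8 were higher in kidney and none in brain, and 7 and none at the 430A scale. They included Hnf4a (108.7 and 2171.6), Tfcp2l1 (42.5 and 1892.8), Mecom (22.7 and 1413.4) and Sall1 (84.3 and 400.3). Tfcp2l1 and Mecom were each called by 1 of 3 probe sets, Sall1 by 1 of 2 and Hnf4a by 2 of 4. The median log2 ratio was -2.29 over the 12 kidney factors above the floor and 1.69 over the 8 forebrain factors, against 0.06 over the 26 family genes.

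On the reverse probe sets, which read antisense RNA, none of the 6 family probe sets was above the floor in either tissue. The floor was the higher 75th percentile of both arrays, 63.5 for U74A and 98.5 for U74B, and 27.7% and 32.3% of all reverse probe sets passed it in at least 1 tissue. With 0 above the floor, 0 were called, where 7.97% (U74A) and 4.64% (U74B) of all were higher in brain and 1.03% and 2.07% in kidney. The reverse probe set of Irx2 read 78.5 in brain and 55.1 in kidney on U74B, at percentiles 69.4 and 58.4. That of Sox9 read 70.3 and 40.7, and that of Sox15 43.5 and 8.5 on U74A. Sox18 read 21.4 and 13.5. All 4 were brighter in brain, and all lay under the 75th percentile of their own array.

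Sox4, again, was read more than once. Its U74A reverse probe set read 9.3 in brain and 7.4 in kidney, at percentiles 29.6 and 28.7. The U74B one, marked _r_at, read 24.3 and 67.9, at percentiles 40.7 and 65, brighter in kidney. The sense signal of Sox4 ranked at percentile 82.4 of the brain 430A array and 99.0 of the whole kidney array. Sox18 had its sense signal at percentile 36 in brain and 84.3 of the whole kidney array, and its reverse signal at 49.8 and 42.2. The U74B reverse probe set of Sox4 and the brightest of its sense probe sets were both brighter in kidney, while its 430B sense probe sets were brighter in brain. Sox18 was brighter in kidney on the sense array and in brain on the reverse. With the reverse signals under the floor, no reverse order was called.

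**Figure D5:**
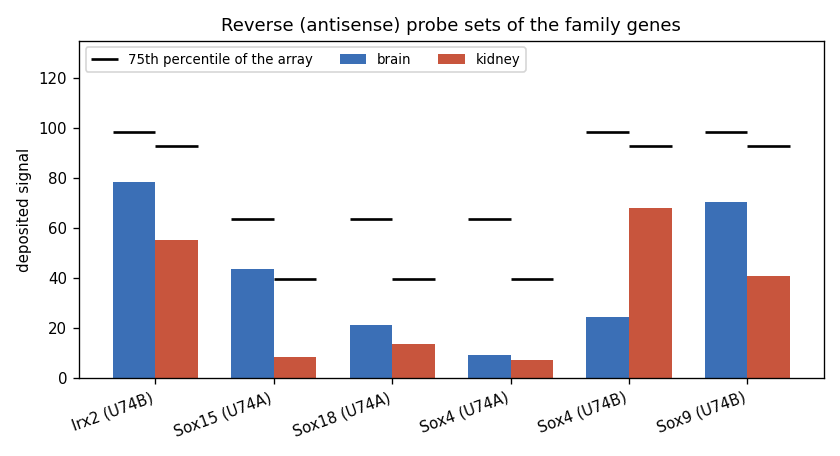
Deposited signals of the 6 reverse probe sets in brain and kidney, with the 75th percentile of each array as a black line. Every bar ends under its line, and Sox4 on U74B is the one probe set brighter in kidney.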

How the data were processed

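Sense and antisense signals of mouse brain and kidney were taken from 7 arrays. Each deposited value is a linear intensity that the submitters' processing notes credit to MAS5. Per the labels, the U74 files hold those reverse probe sets that a mask from Affymetrix lists. Per the labels' protocols, biotinylated cRNA was made from 8 micrograms of TRIzol-extracted brain RNA or 6.75 of kidney RNA. Gene names came from the platform annotation in GEO, and no family symbol differed in RefSeq (GRCm38.p6).

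Python 3.11.15, numpy 2.4.6 and pandas 2.3.3 were used. For each sense pair, the median log2 ratio over probe sets brighter than both array medians (-0.84 for 430A, 2.08 for 430B) was subtracted. After this the higher of the array medians served as floor. Reverse signals were used as deposited, with the floor at the higher 75th percentile. The 100 probe sets on both brain arrays were used from 430A, and gave the step (1.33 on the log2 scale) that brings 430B to the 430A scale. A gene was represented by its probe set of highest mean percentile over both tissues, with the kidney percentile taken over the whole kidney array. Printed sense ranks were taken among the probe sets of the design, unless the whole kidney array is named. Choosing by ranks within the design would favour other probe sets for some genes, among them Six4, Pax6 and Sox11, and would change their calls. The family genes, gene lists and alternatives were chosen with earlier results of these data known. Members were chosen by symbol alone. Of these, every gene above the floor or with a reverse probe set was described with both signals, and the others by name and range. Promoter windows and motifs were chosen after the calls were seen. Counting steps were tested on simulated data. The number of arrays limits the precision.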

Additional observations from a re-analysis of the deposited data

How the results depend on the processing

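Counts of calls moved with the floor. With it at the 75th percentile, the genes called for brain went from 5 to 0 and those for kidney from 9 to 3, and the median log2 ratio was -0.64. By probe set that floor gave 0 and 1 on 430A and 0 and 3 on 430B. With no floor (signals under 1 raised to 1), 33 genes were called for brain and 12 for kidney and the median was 1.55, by probe set 51 in brain and 15 in kidney on 430A and 11 and 12 on 430B. Without a floor, the reverse probe sets gave 1 call each for brain and for kidney and a median log2 ratio of 0.59. Without centring, 430B gave 5 brain and 2 kidney probe sets, and Sox11 turned to 0.82 on the log2 scale. At the 430A scale Sox11 turned to 0.44, 430B gave 2 kidney probe sets and the gene median was 0.38. With the 430A floor used for 430B, that array gave 0 brain and 2 kidney probe sets, and 2 genes stayed higher in brain. When a gene took the median over its probe sets, 3 were called for brain and 5 for kidney. Without probe sets with a suffix mark, 1 on 430A was higher in brain. Of the 14 gene calls, 12 were kept without centring, 13 with quantile normalization, 12 at the 430A scale, 9 with the 430A floor and 8 with gene medians. No paired analysis was possible because each group has 1 array. The causes were not tested.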

Other observations

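Lists of cell types that could have come along with the dissected tissues gave values beside some dim family genes. Of 8 pituitary markers measured, 4 were called for brain and 0 for kidney, the hormone genes Gh (5129.1 and 33.8), Prl (4519.1 and 1.6), Pomc (3041.6 and 52.7) and Cga (612.0 and 16.6). Lhx3, a LIM homeodomain factor of the pituitary, read 98.8 and 26.5, and 62.1 and 13.7, under the floor. Pitx1, another pituitary factor, read 80.1 and 29.0, also under it. None of the 5 pineal and retina markers measured was called, and Otx2, which both organs use, read 29.9 and 0.4. The choroid plexus gene Ttr read 5014.0 and 5593.3, and 3 of 5 choroid plexus markers measured were called for kidney, 2 at the 430A scale.

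In kidney, 2 of 6 adrenal and fat markers were higher (Adipoq and Fabp4), as was 1 of 5 ureter and urothelium markers (Upk1b, not called at the 430A scale), and none of either list was higher in brain. Of 6 mural and fibroblast markers 5 were higher in kidney. Of 7 loop and distal tubule markers, 5 were higher in kidney and Pvalb in brain. Podocyte markers gave 1 each way of 4, Podxl in kidney and Synpo in brain. Of the 2 Synpo probe sets, 1 was called for brain and 1 for kidney. Microglia and blood markers gave 2 in brain and 1 in kidney of 5. Whether these cells account for any family value was not tested.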
